A study of Mus musculus with 4 samples.

Results

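Hair follicle progenitor genes are the transcription factors, receptors, signals and keratins that mark the cells from which the follicle's lower sheath, upper canal and later stem cells are built. The 9 genes described here, out of 56980 in the deposited matrices, were taken by symbol: Sox9, Lhx2, Nfatc1, Tbx1, Lrig1, Lgr5, Lgr6, Pthlh and Krt79. All 9 symbols were found, each with a single gene identifier. The question was how these genes are distributed over the follicle and the basal layer of embryonic skin, and how they respond when enzymes that place the silencing histone mark H3K9me3 are lost.

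Single-cell RNA was counted in 4 libraries of sorted dorsal skin epithelium, positive for Epcam and for α6 integrin, a protein of cells that touch the basement membrane. The 2 Ctrl embryos carried Suv39h1 f/f, Suv39h2-/- and Setdb1 f/f without K14CreERT2, and the 2 TKO (triple knockout) embryos carried the same 3 alleles with K14CreERT2. Both groups lacked Suv39h2 and both received tamoxifen, so the contrast is recombination of Suv39h1 and Setdb1 and the presence of the Cre. The K14 promoter drives the Cre in basal keratinocytes, and the study describes loss of the mark as mosaic. The labels give the age as E16.5. The study's litter list names an earlier day, and the labels were followed.

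A hair follicle starts as a placode, a thickening of the basal layer that receives Wnt and Eda signals. It then grows down as a germ, whose leading cells secrete Shh, and as a peg, whose outer cells become the root sheath. Sox9 and Lhx2 are required for the follicle's progenitors, and Nfatc1, Tbx1, Lgr5, Lgr6 and Lrig1 are known as marks of stem or progenitor cells at different heights of the mature follicle.

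The kept keratinocytes numbered 2845 and 2989 for Ctrl against 1567 and 1791 for TKO, with median depths from 17333 to 30073 UMIs per cell, both TKO libraries being deeper. The libraries shared 39 cell barcodes. Of these 9192 cells, 5066 were basal-like, 1352 differentiating-like, 2349 hair follicle-like and 105 Merkel-like, and 320 were left unnamed. Of the Merkel-like cells 32 and 19 were from TKO, against 0 and 0 when clustering was not corrected for library. The study found no Merkel cluster in TKO. It also described aberrant basal and aberrant differentiating clusters specific to TKO, the latter expressing Sox9. These were not set apart here, and their part in the classes was not tested. None of the 9 genes was used to cluster the cells or to name a cluster. The follicle cells fell into a placode-like subgroup led by Dkk4 (1118 cells), a germ-like subgroup led by Shh (426 cells) and a peg-like subgroup led by Tafa1 (317 cells). A further cluster of 302 cells scored highest for the peg list but above 0 for the basal list too, and is called the Zfpm2-led cluster after its leading gene. The remaining 186 follicle cells, in a cluster led by Lhx2, were assigned to no subgroup. Setdb1 measured 67.6 and 58.3 CPM in the Ctrl keratinocytes against 39.4 and 42.4 CPM in the TKO keratinocytes (log2 change −0.64, edgeR adjusted p = 0.0448), while Suv39h1 and Suv39h2 did not pass the test (adjusted p = 0.468 and 0.391). A 3′ tag outside the deleted part is still counted, so these levels do not measure recombination. CPM denotes UMIs of a gene per 1000000 UMIs, summed over the cells of a group in a library. In such a sum, fewer expressing cells and less RNA per cell cannot be told apart.

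Promoter sequence was available for 6 of the 9 genes in the RefSeq table, in 8 windows on build GRCm38.p6; Sox9, Nfatc1 and Lgr5 were not in it. The windows of Lrig1 and Pthlh are shown because both genes fell in TKO peg-like cells together with Sox9, whose protein binds DNA around the core letters ACAAT. Whether Sox9 acts on either gene was not tested. Capitals mark that core on either strand, in the 250 bases before the transcript start, read 5′ to 3′ on the gene's minus strand. The Lrig1 window lies at chr6:94700146-94700395 and the Pthlh window at chr6:147264014-147264263.
Lrig1: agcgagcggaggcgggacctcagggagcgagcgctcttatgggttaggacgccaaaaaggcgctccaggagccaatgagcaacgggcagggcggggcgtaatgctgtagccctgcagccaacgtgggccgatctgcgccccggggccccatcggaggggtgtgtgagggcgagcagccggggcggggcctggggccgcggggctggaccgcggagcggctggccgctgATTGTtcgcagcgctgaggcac
Pthlh: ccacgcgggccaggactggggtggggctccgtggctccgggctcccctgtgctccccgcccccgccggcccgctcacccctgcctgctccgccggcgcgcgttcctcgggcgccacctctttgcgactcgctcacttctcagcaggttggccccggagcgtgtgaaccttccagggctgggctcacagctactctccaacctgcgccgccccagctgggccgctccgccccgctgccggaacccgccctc
The Lrig1 window held 1 match to ACAAT (as ATTGT, its reverse complement) and the Pthlh window held none. The core occurred in 2 of the 8 windows of these genes, the other being that of Lgr6, against 27.7% of the 32851 windows in the table. CTTTGA, the core bound by Lef and Tcf factors, occurred in none of the 8 windows, against 13.8% of all. G and C made up 71.6% of the Lrig1 window and 75.2% of the Pthlh window.

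In the annotation of the files' build, GRCm39 (GENCODE vM39), Sox9 lies on chromosome 11 (112673009 to 112678586, plus strand) and Lrig1 on chromosome 6 (94581510 to 94677242, minus strand), where Slc25a26 overlaps it on the other strand. Pthlh, at 147153599 to 147165681 on the minus strand of chromosome 6, and Krt79, at 101837767 to 101848759 on the minus strand of chromosome 15, overlap no other annotated gene. At the other loci annotated genes lie on the opposite strand, and Mir7041 lies within Lrig1 on its own strand. Whether counting followed strand is not given in the sources used here, so reads of such partners cannot be told apart.

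The 9 genes were concentrated in the follicle, to very different degrees (levels by group in the plot of log2 CPM). In each Ctrl library 98.2% of the keratinocyte UMIs of Lhx2, and 97.4% and 98.3% of those of Lgr5, came from hair follicle-like cells. For Tbx1 this was 95.6% and 97.9%, for Pthlh 92.9% and 95.5%, and for Nfatc1 93.1% and 88.9%. Sox9 (74.1% and 78.0%), Lgr6 (70.9% and 72.0%), Krt79 (50.7% and 67.6%) and Lrig1 (41.2% and 51.3%) had a larger basal part.

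**Figure D1:**
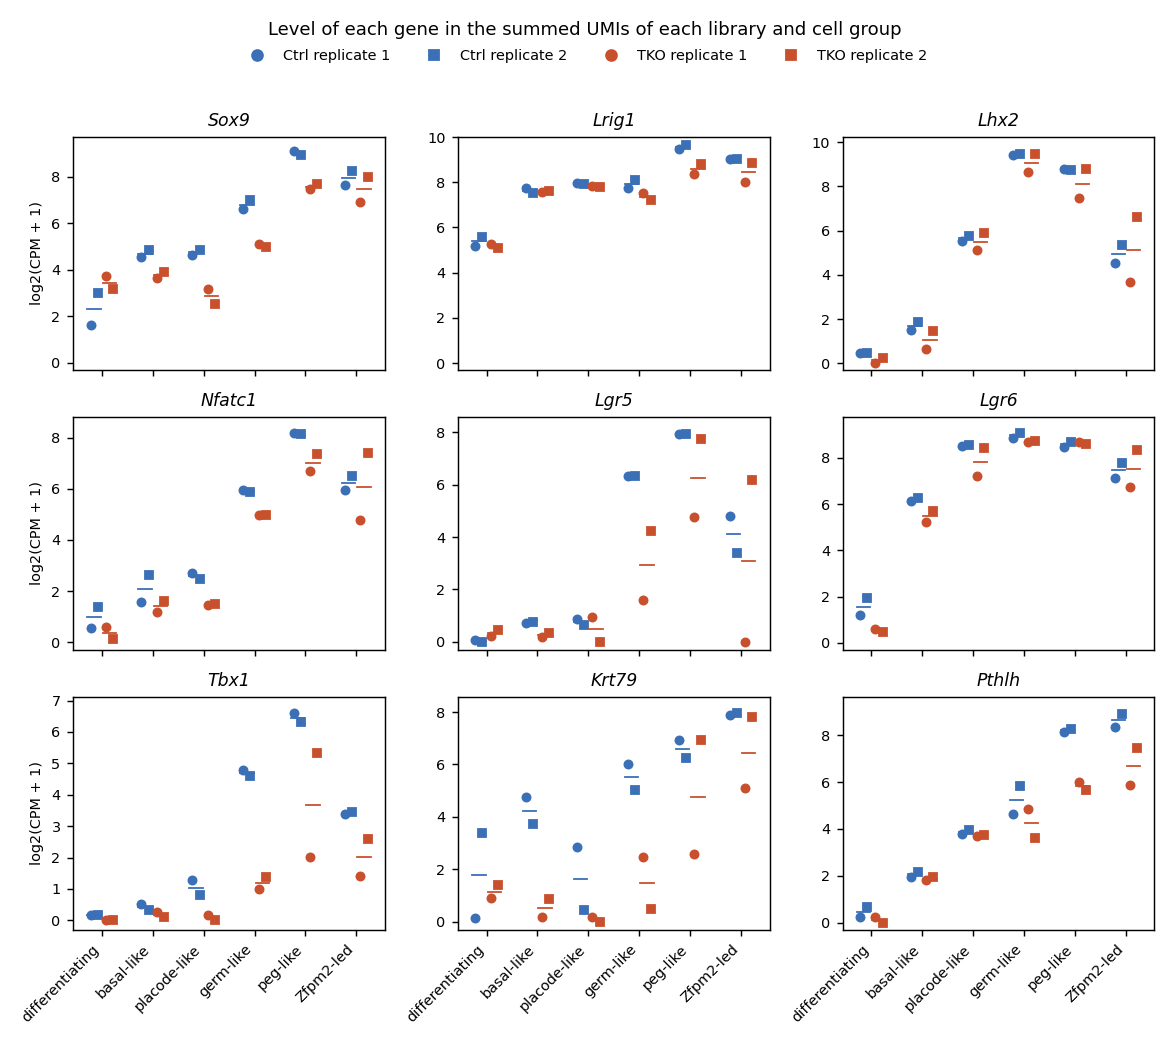
Level of each of the 9 genes as log2(CPM + 1) in 6 groups of keratinocytes. Points are libraries (blue Ctrl, red TKO; circle replicate 1, square replicate 2) and short bars are means of the 2 libraries. Sox9 reached 551 and 492 CPM in the Ctrl peg-like cells and 175 and 204 CPM in the TKO ones.

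Within the Ctrl follicle the genes peaked in different subgroups. Sox9 stood at 521 ± 41.6 CPM (SD, n = 2 libraries, as for all values given in this form) in peg-like cells, 254 ± 73.9 in the Zfpm2-led cluster, 111 ± 20.4 in germ-like cells and 26.1 ± 2.83 in placode-like cells, the last overlapping basal-like cells (24.97 ± 3.45). Nfatc1, Lgr5, Tbx1 and Lrig1 were also highest in peg-like cells, at 286 ± 1.26, 245 ± 0.337, 87.1 ± 11.8 and 755 ± 62.4 CPM. Lhx2 and Lgr6 were highest in germ-like cells, at 699 ± 23.9 and 501 ± 56.3 CPM, above the 435 ± 3.09 and 382 ± 41.3 CPM of peg-like cells. For Lgr6 the peg-like and placode-like cells (372 ± 9.96 CPM) overlapped. Pthlh and Krt79 were highest in the Zfpm2-led cluster, at 403 ± 115 and 239 ± 8.86 CPM. These are descriptions, since the groups were formed from the same cells.

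In hair follicle-like cells 5 of the 9 genes fell in TKO: Pthlh, Sox9, Lrig1, Tbx1 and Nfatc1. None rose. The background was 6.29% of the 16065 genes tested called lower and 7.22% called higher (edgeR quasi-likelihood test on sums per library, Benjamini-Hochberg adjusted p under 0.05). All 9 log2 changes were below 0, with a median of −1.69 against −0.02 over all genes tested. Krt79, Lgr5, Lhx2 and Lgr6 did not pass the test. The 2 TKO libraries differed between themselves by more than the 2 Ctrl libraries for several genes, with TKO replicate 1 the lower.

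Among the transcription factors, Sox9, an HMG-box factor needed for the outer root sheath, measured 146 and 215 CPM in Ctrl against 42.6 and 62.0 CPM in TKO. The groups did not overlap, and Sox9 fell by 1.74 on the log2 scale (SE 0.23, adjusted p = 0.00411). Nfatc1, a calcium-dependent factor that holds adult bulge stem cells at rest, measured 71.0 and 99.0 CPM against 21.6 and 44.0 CPM (log2 change −1.32, SE 0.31, adjusted p = 0.0306). Tbx1, a T-box factor of bulge stem cells, measured 23.1 and 29.1 CPM against 0.574 and 6.39 CPM (log2 change −2.83, SE 0.65, adjusted p = 0.0284). TKO replicate 1 held only 7 UMIs of Tbx1, so its fold is poorly fixed at this depth. Lhx2, a LIM-homeodomain factor of the early follicle, measured 260 and 327 CPM against 107 and 249 CPM and was not called (log2 change −0.67, 95% interval −1.46 to 0.12, adjusted p = 0.235). Its TKO replicate 2 lay just under the lower Ctrl library, and its replicate 1 lay far below both.

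Of the receptors and membrane proteins, Lrig1, which restrains ErbB receptors, measured 348 and 424 CPM in Ctrl against 238 and 257 CPM in TKO. It fell by 0.60 on the log2 scale (SE 0.13, adjusted p = 0.0225), the smallest change among the called members. Lgr5, a receptor for R-spondins, which strengthen Wnt signals, measured 62.3 and 83.0 CPM against 4.596 and 38.6 CPM. Its TKO libraries lay far apart, and it was not called (log2 change −1.69, 95% interval −3.29 to −0.08, adjusted p = 0.151). Lgr6, a related receptor of the upper follicle, measured 353 and 396 CPM against 222 and 367 CPM, with overlapping groups (adjusted p = 0.417).

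Pthlh, a secreted peptide by which epithelium signals to the dermis, measured 97.2 and 165 CPM in Ctrl against 23.8 and 25.6 CPM in TKO. It fell by 2.36 on the log2 scale (SE 0.23, adjusted p = 0.00144), and both TKO libraries were nearly equal. Krt79, a keratin of cells that line the upper follicle canal, measured 62.5 and 62.0 CPM against 2.87 and 24.4 CPM and was not called (log2 change −2.13, adjusted p = 0.0744). Krt79 was seen in 6 cells of TKO replicate 1 and 30 of TKO replicate 2, against 102 and 170 cells in Ctrl. For Lrig1 the 10 highest cells held between 11.5% and 14.3% in every library.

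**Figure D2:**
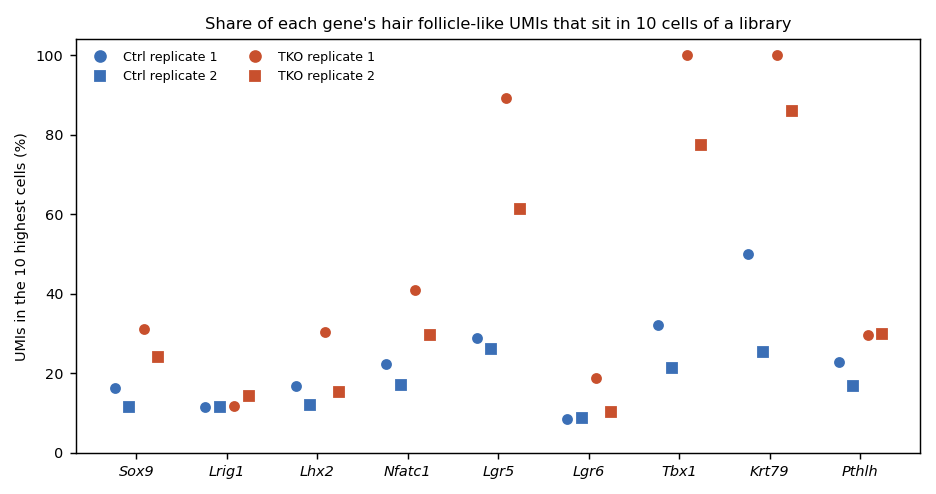
Share of the hair follicle-like UMIs of each gene that sat in the 10 cells with the most UMIs of that gene, per library (blue Ctrl, red TKO; circle replicate 1, square replicate 2). Lrig1 lay between 11.5% and 14.3%. In TKO replicate 1 only 6 cells had a UMI of Tbx1 and 6 of Krt79, so 100% there is set by that number.

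The calls of Sox9 and Pthlh held in each of the 18 alternatives that gave a test, while those of Lrig1, Nfatc1 and Tbx1 were each lost in 3. Of the members not called, Krt79 passed in 9 alternatives, Lgr5 in 6, Lhx2 in 4 and Lgr6 in 1, some of them with 1 library left out. Without Ctrl replicate 1 the test called 8 members (7.26% of all genes called lower) and without TKO replicate 2 it called 9 (5.17%), with 1 library left in that group and its spread assumed equal to the other group's, whereas Lrig1 was not called without Ctrl replicate 2 (adjusted p = 0.0737) or without TKO replicate 1 (adjusted p = 0.0813). Lgr6 turned to a log2 change of 0.04 without TKO replicate 1, and the count was 2 with no expression filter (1.78% of all genes called lower) and 3 with DESeq2 (4.52%).

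The makeup of the follicle cells differed between genotypes. Peg-like cells made up 12.7% and 17.8% of the Ctrl follicle cells and 9.09% and 10.1% of the TKO follicle cells, and the Zfpm2-led cluster 15.7% and 17.2% against 5.79% and 6.24%. Placode-like cells made up 48.0% and 37.9% against 62.0% and 53.5%, and germ-like cells overlapped at 15.9% and 19.9% against 14.6% and 20.9%. Over the alternatives the TKO minus Ctrl difference ran from 8.71 to 41.2 percentage points for placode-like cells and from −21.3 to −3.14 for peg-like cells, both largest on uncorrected components. For 2 libraries against 2 an exact two-sided permutation test cannot go below p = 0.3333, the value it gave for each group that did not overlap. When the 4 groups were weighted equally in every library, the log2 ratio of the means was −1.13 for Sox9, −0.63 for Lrig1, −0.71 for Nfatc1, −2.24 for Tbx1 and −1.88 for Pthlh, given here with no test. The following fits were run within each subgroup.

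In placode-like cells 2 of the 6 members tested fell, Sox9 and Nfatc1, against a background of 3.96% called lower. The subgroup pooled 2 clusters. The cluster with Ube2c among its leading genes held 79 and 69 Ctrl cells against 111 and 91 TKO cells, and the other 241 and 255 against 114 and 158. The part of this makeup in the values was not tested. Sox9 measured 24.1 and 28.1 CPM in Ctrl against 8.09 and 4.73 CPM in TKO, and fell by 2.01 on the log2 scale (SE 0.26, adjusted p = 0.00469). With the changed genes kept in the clustering its log2 change was −0.99 and not called (adjusted p = 0.235). Nfatc1 was low, at 5.50 and 4.59 CPM against 1.72 and 1.81 CPM, from 13 to 39 UMIs per library (adjusted p = 0.0383), and its call was lost in 10 of 16 alternatives, among them DESeq2 (adjusted p = 0.215) and each fit without a library other than TKO replicate 2 (adjusted p from 0.0683 to 0.24), and turned to 0.025 with the changed genes kept in the clustering. Lrig1 was near level, at 251 and 246 CPM against 230 and 220 CPM (log2 change −0.14, 95% interval −0.39 to 0.12, adjusted p = 0.469). Pthlh was near level too, at 12.8 and 14.5 CPM against 12.1 and 12.2 CPM (95% interval −0.63 to 0.31). Lgr6 measured 365 and 379 CPM against 146 and 339 CPM, so that TKO replicate 1 alone was far from the rest. Lhx2 overlapped at 44.8 and 53.99 CPM against 33.4 and 59.1 CPM (adjusted p = 0.864). Lgr5, Tbx1 and Krt79 were too low to test, with at most 7, 10 and 44 UMIs in a library.

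In germ-like cells 5 of 9 members fell: Tbx1, Krt79, Lgr5, Sox9 and Nfatc1, against 2.09% of all genes called lower. Sox9 measured 96.9 and 126 CPM against 33.6 and 30.4 CPM (log2 change −1.80, SE 0.18, adjusted p = 0.00319). Tbx1 measured 26.4 and 23.2 CPM against 1.003 and 1.60 CPM, that is 93 and 89 UMIs against 2 and 4 (log2 change −4.16, adjusted p = 0.00221). Lgr5 measured 79.9 and 78.6 CPM against 2.01 and 18.0 CPM (log2 change −2.88, SE 0.50, adjusted p = 0.0221). Krt79 had 226 and 123 UMIs against 9 and 1 (log2 change −4.38, adjusted p = 0.0109), and in Ctrl replicate 1 a single cell held 168 of the 226. Nfatc1 measured 61.5 and 57.5 CPM against 30.6 and 30.8 CPM (adjusted p = 0.0176). Lrig1 (212 and 278 CPM against 182 and 146 CPM), Lgr6 (461 and 541 CPM against 408 and 423 CPM) and Pthlh (23.8 and 55.98 CPM against 28.1 and 11.2 CPM) were not called (adjusted p = 0.12, 0.36 and 0.322). The Sox9 and Krt79 calls were each lost in 3 of 17 alternatives, Sox9 reaching −0.85 on uncorrected components (adjusted p = 0.509) and Krt79 −1.55 with the changed genes kept in the clustering (adjusted p = 0.233). The Nfatc1 call was lost in 9 of 17 alternatives, with a log2 change of −0.17 (adjusted p = 0.949) where the 9 genes were kept in the clustering. The Lgr5 call was lost in 7 of 17, with a log2 change of −1.47 (adjusted p = 0.415) on uncorrected components. Lhx2, the most restricted to this subgroup, measured 682 and 716 CPM against 404 and 705 CPM, with overlapping groups (adjusted p = 0.579). The count of called members in germ-like cells was 1 with cells thinned to equal depth (0.679% of all genes called lower) and 3 with DESeq2 (1.20%).

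In peg-like cells 4 of 9 members fell: Pthlh, Sox9, Nfatc1 and Lrig1, against 2.91% of all genes called lower. Pthlh measured 279 and 311 CPM in Ctrl against 62.6 and 50.3 CPM in TKO, and fell by 2.41 on the log2 scale (SE 0.16, adjusted p = 0.000523). Sox9 measured 551 and 492 CPM against 175 and 204 CPM (log2 change −1.47, SE 0.14, adjusted p = 0.0018). Nfatc1 measured 287 and 285 CPM against 102 and 162 CPM (log2 change −1.12, SE 0.20, adjusted p = 0.0188). Lrig1 measured 711 and 799 CPM against 331 and 454 CPM (log2 change −0.95, SE 0.17, adjusted p = 0.0155). In the same cells Lgr6 was near level at 353 and 411 CPM against 415 and 382 CPM (log2 change 0.04, 95% interval −0.25 to 0.34). Lgr5 and Krt79 split the TKO libraries, with 26.3 and 212 CPM for Lgr5 and 5.05 and 122 CPM for Krt79, so that TKO replicate 2 came close to Ctrl and TKO replicate 1 did not. Tbx1 measured 95.4 and 78.7 CPM against 3.03 and 39.5 CPM (log2 change −1.89, adjusted p = 0.0811), and Lhx2 overlapped at 437 and 433 CPM against 175 and 437 CPM (adjusted p = 0.428). The TKO sums rest on 33 and 47 cells. Of the 170 Krt79 UMIs in TKO replicate 2, 134 came from 1 cell. On components not corrected for library none was called, with Pthlh at −2.02 (adjusted p = 0.0505), Sox9 at −0.68 (0.141), Lrig1 at −0.57 (0.394) and Nfatc1 at −0.45 (0.508). Only 0.11% of all genes were called lower in that fit. The count of called members was 2 without Ctrl replicate 1 (0.32% of all genes called lower), 1 without Ctrl replicate 2 (Pthlh alone, 0.0915%) and 8 without TKO replicate 2 (4.42%).

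**Figure D3:**
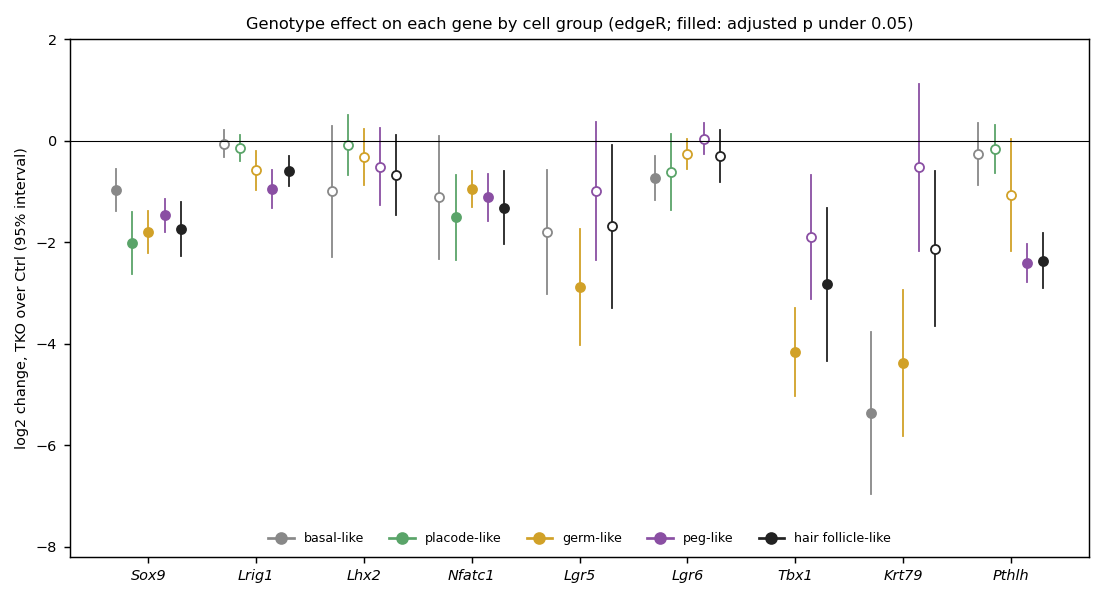
Log2 change of TKO over Ctrl for each gene in 5 groups of cells, with 95% intervals from edgeR; filled points passed an adjusted p of 0.05. Sox9 lies below 0 and is filled in every group, Lgr6 in peg-like cells sits at 0.04, and Pthlh separates peg-like cells at −2.41 from placode-like cells at −0.16.

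Whether peg-like cells differed from placode-like cells in their response was tested by an interaction of subgroup and genotype, added after the subgroup fits had been seen. Pthlh (difference of log2 changes −2.22, SE 0.22, adjusted p = 0.000442) and Lrig1 (−0.80, SE 0.17, adjusted p = 0.0241) changed more steeply in peg-like cells. These were 2 of the 9 members, beside 1.46% of the 13708 genes tested with a more negative and 1.58% with a more positive difference. For Sox9 the difference was 0.57 (95% interval −0.01 to 1.16, adjusted p = 0.342), so its falls in both subgroups were not shown to differ. With DESeq2 the Lrig1 difference was not called (adjusted p = 0.0821), nor was it without Ctrl replicate 2 (adjusted p = 0.0825).

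None of the 9 members was called in the Zfpm2-led cluster, against 1.16% of all genes called lower. At an unadjusted p under 0.05 in edgeR 2 passed, Pthlh and Tbx1, beside 1799 of the 10090 genes tested. It held 105 and 147 cells in Ctrl but 21 and 29 in TKO. Pthlh measured 321 and 485 CPM against 58.2 and 173 CPM (log2 change −1.81, SE 0.40, adjusted p = 0.0547), with groups that did not overlap. Sox9 overlapped, at 202 and 306 CPM against 120 and 256 CPM. Each fit that left out 1 library called between 3 and 5 members there, and DESeq2 called 0.

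Outside the follicle, in basal-like cells, 3 of 8 members tested fell, Krt79, Sox9 and Lgr6, against 4.41% of all genes called lower. Sox9 measured 22.5 and 27.4 CPM against 11.7 and 14.1 CPM (log2 change −0.96, SE 0.17, adjusted p = 0.0194). Lgr6 measured 68.6 and 76.3 CPM against 36.6 and 51.1 CPM (log2 change −0.73, SE 0.18, adjusted p = 0.0482), close to the threshold. Lrig1, with 5460 to 6919 UMIs per library, was level: 211 and 185 CPM against 189 and 196 CPM (log2 change −0.05, 95% interval −0.31 to 0.21, adjusted p = 0.8). Pthlh was level at 2.90 and 3.51 CPM against 2.52 and 2.87 CPM. Lhx2, Nfatc1 and Lgr5, all at most 5.18 CPM, were not called (adjusted p = 0.278, 0.206 and 0.0691), and Tbx1, with 2 to 14 UMIs a library, was not tested. Sox9 lost its call in 2 of 19 alternatives, without Ctrl replicate 2 (adjusted p = 0.0891) and on uncorrected components (adjusted p = 0.159). Lgr6 lost it in 8 of 19, among them when any library but TKO replicate 2 was left out.

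Krt79 gave the steepest basal-like change, from 25.8 and 12.3 CPM to 0.128 and 0.824 CPM (log2 change −5.36, SE 0.67, adjusted p = 0.00642), but it rested on few cells. Only 18 and 16 basal-like Ctrl cells had a Krt79 UMI, and the 5 highest held 91.6% and 95.03% of all. Nearly all of these UMIs, 839 of 846 and 367 of 382, lay in 1 basal-like cluster of 404 cells led by Krt79 and Zfp750, with 162 and 144 cells from Ctrl against 35 and 63 from TKO. In the other basal-like cells Krt79 stood at 0.242 and 0.524 CPM against 0.132 and 0.192 CPM. With the 9 genes kept in the clustering, basal-like Krt79 had a log2 change of 0.29 (adjusted p = 0.8).

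An interaction of class and genotype compared the follicle with the basal layer directly, in 18075 genes. Pthlh (difference of log2 changes −2.03, SE 0.19, adjusted p = 0.00584) and Sox9 (−0.74, SE 0.12, adjusted p = 0.0314) changed more in hair follicle-like than in basal-like cells, beside 1.06% of all genes in that direction. Krt79 changed less (3.12, SE 0.51, adjusted p = 0.0275), beside 0.791% in that direction. Lrig1 (−0.50, adjusted p = 0.139) and Lgr6 (0.45, adjusted p = 0.0623) were not called. The Sox9 difference ranged from −1.60 to −0.28 and was not called in 7 of 17 alternatives, among them without Ctrl replicate 1 (adjusted p = 0.0803) or Ctrl replicate 2 (adjusted p = 0.259). That of Krt79 was not called without TKO replicate 2 (adjusted p = 0.175). The Krt79 difference turned to −0.99 (adjusted p = 0.616) without the Zfp750-led cluster, and the Pthlh difference turned to 0.42 (adjusted p = 0.584) when the Zfpm2-led cluster was counted as basal-like.

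In differentiating-like cells 4 members could be tested and 0 were called, against 0.474% of all genes called lower. At an unadjusted p under 0.05, which 17.4% of all genes passed, so did 1 of the 4, Lgr6, at 1.33 and 2.79 CPM against 0.515 and 0.381 CPM (adjusted p = 0.149), and DESeq2 called 0. Sox9 was the only one of the 4 tested members whose TKO libraries both lay above Ctrl, at 12.2 and 7.9998 CPM against 2.06 and 6.91 CPM (log2 change 1.14, 95% interval −0.23 to 2.51, adjusted p = 0.371). In all keratinocytes together Pthlh (24.4 and 47.5 CPM against 7.62 and 8.07 CPM, adjusted p = 0.0218) and Sox9 (46.0 and 75.9 CPM against 20.1 and 24.6 CPM, adjusted p = 0.034) fell, 2 of 9 against 2.59% of all genes called lower. Without Ctrl replicate 1 edgeR called 0 of 21031 genes, with 2798 at an unadjusted p under 0.05, so the loss of both calls there (adjusted p = 0.217 and 0.228) is not particular to these genes. Sox9 was also not called without TKO replicate 1 (adjusted p = 0.0735), and without TKO replicate 2 the count was 8, beside 3.50% of all genes called lower.

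The share of cells with a UMI was compared after each cell had been thinned to 5000 UMIs, because the TKO cells were deeper. Sox9 was detected in 31.8% and 40.2% of Ctrl hair follicle-like cells and in 14.1% and 15.8% of TKO cells. Pthlh was detected in 21.0% and 30.2% against 10.2% and 10.6%, and Nfatc1 in 17.4% and 23.6% against 7.46% and 13.4%. Lgr5 (12.7% and 14.4% against 1.38% and 6.06%), Tbx1 (6.35% and 9.65% against 0.829% and 2.16%) and Krt79 (10.4% and 12.8% against 0.829% and 4.11%) did not overlap either. Lrig1 was detected in 67.2% and 68.2% against 62.7% and 60.6%. Lhx2 (35.7% and 47.0% against 24.03% and 42.9%) and Lgr6 (70.5% and 72.9% against 53.6% and 76.6%) overlapped. Each permutation p of these shares is at or above 0.3333. Without thinning, Lrig1 was detected in 91.1% ± 0.23 of Ctrl and 93.6% ± 3.2 of TKO cells, the opposite order, while its CPM fell.

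Cells that should lack a gene give the level of free RNA. In immune-like cells of the same libraries, also at 5000 UMIs, Sox9, Lhx2, Lgr5, Tbx1, Krt79 and Pthlh were each detected in at most 1.56% of cells of any library, and Lgr6 in at most 4.69%. Lrig1 was detected in 6.25% and 4.17% of Ctrl and 0.407% and 0.709% of TKO immune-like cells. Tbx1 was detected in 0 immune-like cells of any library and Krt79 in at most 0.407%. The shares of 0.829% for both in TKO replicate 1 rest on few cells, with all 35 Krt79 UMIs of its hair follicle-like cells, before thinning, in 6 cells. Nfatc1 was detected in 12.5% to 20.8% of immune-like cells, which use this factor, and Lgr5 in 12.8% to 20.6% of fibroblast-like cells. Immune-like cells numbered 64 and 97 in Ctrl against 247 and 288 in TKO, and the part of such cells in the values above was not tested.

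**Figure D4:**
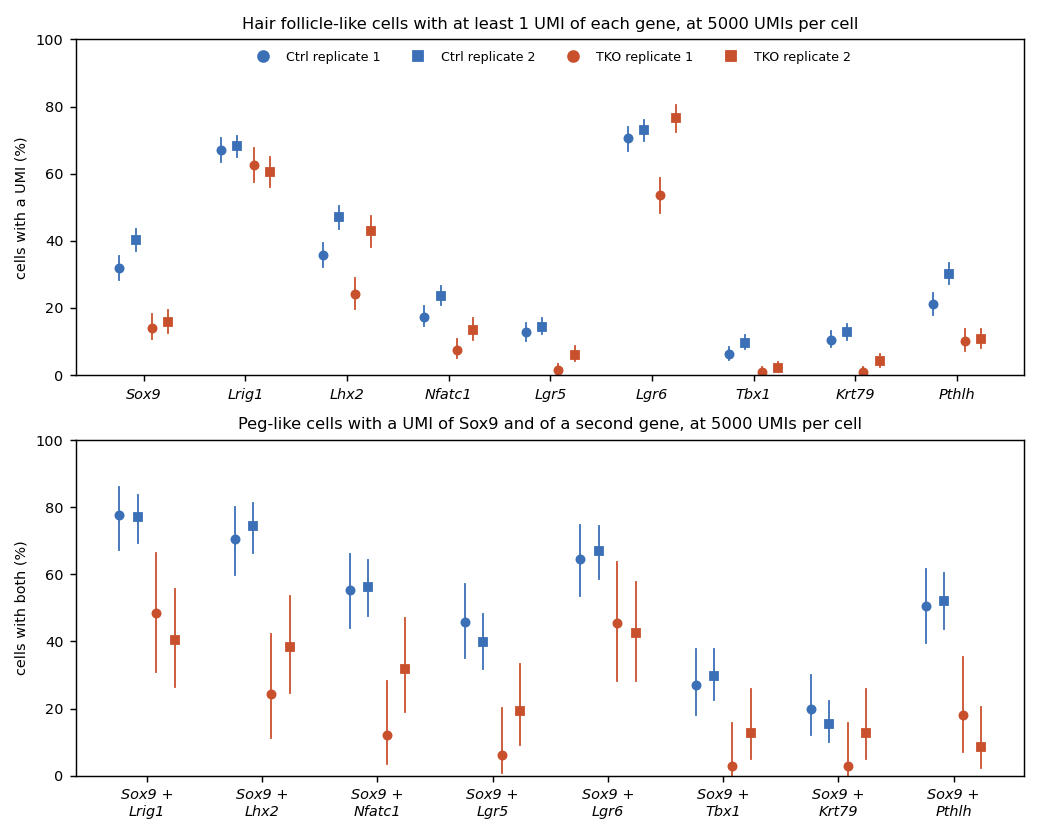
Top, share of hair follicle-like cells with at least 1 UMI of each gene; bottom, share of peg-like cells with a UMI of Sox9 and of a second gene; all cells were thinned to 5000 UMIs. Points are libraries (blue Ctrl, red TKO) with exact 95% binomial intervals, which cover counting error only. Sox9 with Lrig1 was seen in 77.6% and 77.0% of Ctrl and 48.5% and 40.4% of TKO peg-like cells.

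Sox9 was detected in 87.1% (95% exact binomial interval in the plot of shares) and 85.1% of Ctrl peg-like cells and in 54.5% and 48.9% of TKO ones. Cells with both Sox9 and Lrig1 made up 77.6% and 77.0% against 48.5% and 40.4%, and cells with both Sox9 and Pthlh 50.6% and 52.0% against 18.2% and 8.51%. Sox9 with Lgr6 was found in 64.7% and 66.9% against 45.5% and 42.6%, although Lgr6 itself was detected alike, in 74.1% and 80.4% against 72.7% and 83.0%. At least 3 of the 9 genes were detected in 96.5% and 99.3% of Ctrl peg-like cells and in 63.6% and 85.1% of TKO peg-like cells. In placode-like cells this was 11.7% and 14.2% against 6.25% and 11.7%.

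Because loss of the mark is mosaic, TKO cells were also described by 7 transcripts that earlier work on these libraries had found raised in TKO. At 5000 UMIs, 2 or more of them were detected in 50 of 362 and 41 of 462 TKO hair follicle-like cells and in 0 of 661 and 0 of 839 Ctrl cells. Having been chosen in these libraries for being raised in TKO, the transcripts say nothing independent of their level in Ctrl. Cells near the limit were many, with 170 and 181 TKO cells showing 1 of the 7. In TKO cells with fewer than 2, Sox9 stood at 42.9 and 56.5 CPM, and in those with 2 or more at 56.0 and 63.4 CPM, all below the 144 and 199 CPM of Ctrl at the same depth. The latter rest on 14 and 13 UMIs. Lrig1 stood at 240 and 260 CPM in the former and 232 and 185 CPM in the latter. Lhx2 (117 and 270 CPM against 48.0 and 209.8 CPM), Lgr6 (247 and 394 CPM against 156 and 327 CPM), Nfatc1 (19.9 and 45.1 CPM against 12.0 and 34.1 CPM) and Pthlh (25.6 and 32.8 CPM against 12.0 and 29.3 CPM) were lower in the cells with 2 or more in both libraries, from 3 to 67 UMIs. Lgr5, Tbx1 and Krt79 went opposite ways in the 2 libraries, on at most 11 UMIs. These values are descriptions of cells within 2 libraries.

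The other genes of follicle development were read from a list of 46 in the same hair follicle-like fit, in which 42 were tested, 17 fell and 5 rose, beside 6.29% of all genes called lower and 7.22% called higher. The list's median log2 change was −0.29 against −0.02 over all genes. In basal-like cells 8 of the 40 list genes tested fell and 2 rose, beside 4.41% of all genes called lower and 7.91% called higher. Krt15, Foxc1 and Scd1 were among those that fell there, and Sp5 and Eda2r rose. Those changes are thus not particular to the follicle. Of the list, 23 genes also served to name the follicle subgroups. These sums mix subgroups whose shares differed between genotypes, with placode-like cells at 43.0% ± 7.097 in Ctrl against 57.8% ± 5.96 in TKO, so counts within subgroups are given beside those of the placode, sheath and upper groups. The part of the makeup in the mixed counts was not tested.

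Of 14 placode signals and receptors, 4 rose, 1 fell and 9 were not called, with a median log2 change of 0.31. Within placode-like cells 2 rose (Wnt10a and Sp5), beside 6.54% of all genes called higher there, 1 fell (Edaradd) and 10 of 14 lay below 0, with a median of −0.17, and Dkk4 and Eda2r were not called. In germ-like cells 3 rose (Sp5, Dkk4 and Eda2r), beside 1.82% of all genes, and 0 fell. In peg-like cells 5 of 11 tested rose (Bmp2, Lef1, Edar, Wnt10b and Eda2r), beside 2.56% of all genes, and 0 fell. The values that follow are of the mixed hair follicle-like fit. Eda2r, a receptor for an ectodysplasin isoform, rose from 1.38 and 0.760 CPM to 8.37 and 4.87 CPM (log2 change 2.65, adjusted p = 0.00743). Sp5, a Wnt target, rose from 21.98 and 25.9 CPM to 67.9 and 90.2 CPM (1.77, adjusted p = 0.00139), and Dkk4, a secreted Wnt inhibitor of the placode, from 54.5 and 54.8 CPM to 113 and 137 CPM (1.23, adjusted p = 0.002). Wnt10a rose from 34.6 and 38.9 CPM to 54.4 and 47.2 CPM (0.51, adjusted p = 0.0372), while Sostdc1, an inhibitor of Bmp and Wnt, fell from 320 and 357 CPM to 181 and 191 CPM (−0.82, adjusted p = 0.00443). Ctnnb1, which encodes beta-catenin, was not called (0.29, adjusted p = 0.148).

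Of 8 hedgehog genes 2 fell and 6 were not called. Hhip, a hedgehog-binding inhibitor, fell from 6.09 and 5.26 CPM to 1.40 and 1.60 CPM (−1.88, adjusted p = 0.00748) and Wif1, a Wnt inhibitor of the germ, from 83.5 and 68.9 CPM to 46.9 and 47.5 CPM (−0.65, adjusted p = 0.0196). Shh itself measured 98.8 and 112 CPM against 76.2 and 115 CPM, with overlapping groups. Ptch1 (−0.35, adjusted p = 0.341) and Gli2 (−0.42, adjusted p = 0.2) were not called. These values are of the mixed hair follicle-like fit. Within placode-like, germ-like and peg-like cells neither Hhip nor Wif1 was called.

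Of 17 outer sheath and stem cell regulators 15 were tested, 11 fell and 1 (Foxp1) rose, with a median log2 change of −1.25. Within subgroups fewer passed the test: 2 of 13 fell in placode-like cells (median −0.25), 6 of 15 in germ-like cells (median −0.71) and 7 of 15 in peg-like cells (median −1.19). The shares of all genes called lower in these fits were 3.96%, 2.09% and 2.91%. In the mixed hair follicle-like fit Barx2, a homeobox factor, fell from 209 and 305 CPM to 27.5 and 45.1 CPM (−2.77, adjusted p = 0.00127). Tafa1, a secreted protein, fell there from 92.7 and 153 CPM to 19.7 and 21.5 CPM (−2.53, adjusted p = 0.00107). Runx1, a factor of follicle stem cells, fell from 286 and 412 CPM to 107 and 142 CPM (−1.44, adjusted p = 0.00519). Vdr, the vitamin D receptor, fell by 2.31, Foxc1, a factor of stem cell rest, by 1.86 and Krt15, a keratin of basal and bulge cells, by 1.64 on the log2 scale (adjusted p = 0.0154, 0.0316 and 0.000425). Of 7 upper follicle and sebaceous genes 5 were tested and 3 fell: Plet1 by 1.77, Prdm1 by 1.71 and Scd1 by 0.85 on the log2 scale (adjusted p = 0.00282, 0.002 and 0.035). Gata6 (−1.82, adjusted p = 0.0519) and Cst6 (0.11, adjusted p = 0.897) were not called. Within subgroups 1 of 4 fell in placode-like cells (Plet1), beside 3.96% of all genes called lower there. The counts were 0 of 4 in germ-like cells (2.09%) and 1 of 3 in peg-like cells (Prdm1, 2.91%). Scd1 was called in none of these subgroups.

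**Figure D5:**
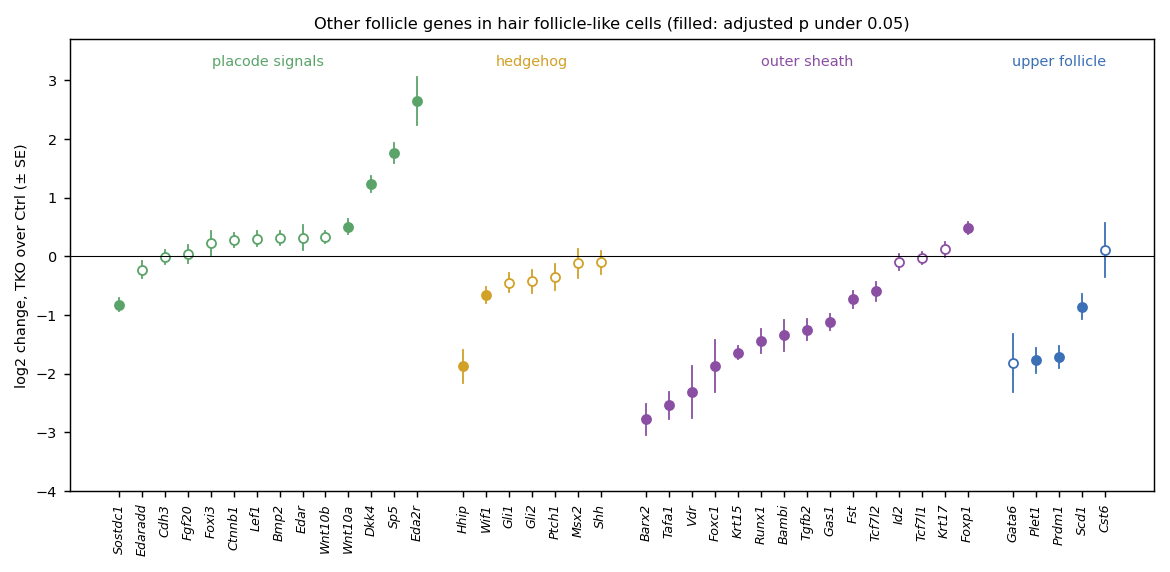
Log2 change of TKO over Ctrl in hair follicle-like cells for tested genes of the follicle list, all but 1 of them shown, in 4 groups ordered by change, with 1 SE from edgeR; filled points passed an adjusted p of 0.05. The 11 sheath genes that fell range down to −2.77 for Barx2, and the highest placode gene is Eda2r at 2.65.

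The genes most like each member over 20 sums, 5 groups of keratinocytes in 4 libraries, were found among 9212 genes of at least 10 CPM on average. The measure was Pearson's r of log2(CPM + 1), and the points share libraries and depth, so it is given as a description. Sox9 was followed most closely by Plcl1 and Prdm1 (r = 0.96 for each) and Nfatc1 by Tgfb3 and Prdm1 (0.97 for each). Lgr5 and Tbx1 were nearest to each other among all genes (0.97). Lhx2 was nearest to Nrp2 and Slc7a2 (0.99 and 0.98), Lgr6 to Pxdn (0.99), Lrig1 to Slc27a1 and Usp11 (0.97 for each) and Pthlh to Adgra3 and Adamts19 (0.97 for each). Krt79 had the weakest neighbours, Fryl and Mfhas1 (0.87 and 0.85). Among the members, Sox9 ran with Nfatc1 at 0.95 and with Lrig1 at 0.78.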

How the data were processed

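UMI counts per gene and cell were deposited as filtered matrices, which the authors made with Cell Ranger 7.1.0 (per the file headers) on GRCm39. The study's methods name another version of Cell Ranger, and the headers were followed. The annotation release, strand setting and use of intronic reads are not given in the sources used here. The 4 libraries held 19789 barcodes and 309291898 UMIs. Cells with at least 2000 genes and at most 10% mitochondrial UMIs were kept (11221), and 457 were left out as likely doublets at 0.8% per 1000 barcodes, since the automatic Scrublet threshold found few. Cells were clustered (scanpy 1.11.5, Harmony correction, Leiden resolution 1) without the 9 genes and without the genes called between genotypes over keratinocytes. Classes were named from marker lists that hold none of the 9 genes, and 2 basal-like clusters were led by stress genes such as Cxcl10 and Atf3. Raw UMIs were summed per library and class and tested with edgeR 4.0.16 (quasi-likelihood, TMM, default expression filter, Benjamini-Hochberg over all genes, R 4.3.3), with DESeq2 1.42.0 as an alternative. Binomial intervals are Clopper-Pearson at 95% and, like the limit for a count of 0 (3 counts), cover counting error only. The 9 genes are named by the rule, and other genes are named from a list by the size of change within its groups. The genes and lists were chosen with earlier results of these data known. Each group holds 2 embryos, so p-values rest on the spread between 2 libraries. The study states that both sexes were included in each sequenced group. The labels do not give the sex of a library, and its part in that spread was not tested. The scripts were tested on simulated data. The values of 1 gene of the follicle list are not reported here.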

Additional observations from a re-analysis of the deposited data

Results flagged for a closer look

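For 3 genes the change with genotype differed between hair follicle-like and basal-like cells in the interaction test. The difference of log2 changes, follicle minus basal, was −2.03 for Pthlh and −0.74 for Sox9, both steeper in the follicle. It was 3.12 for Krt79, whose basal-like UMIs lay in few Ctrl cells. With 1 library left out in turn the Pthlh difference stayed called in all 4 fits, and those of Sox9 and Krt79 did not. The Pthlh difference turned positive in 2 of 17 alternatives (0.29 with at least 3000 genes and 0.42 with Zfpm2-led cells counted as basal-like), and that of Krt79 turned negative in 6 of 17.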

How the results depend on the processing

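The percentages beside counts of called members are the shares of all tested genes called in either direction in the same fit. With 1 library left out in turn, the counts ranged from 6 to 9 in hair follicle-like (7.98% to 15%), 1 to 4 in basal-like (4.64% to 15.6%), 0 to 8 in all keratinocytes (0% to 8.67%), 1 to 5 in placode-like (3.77% to 22%) and 1 to 8 in peg-like cells (0.137% to 7.36%), from 3 to 5 in the Zfpm2-led cluster (3.39% to 5.26%), and from 2 to 5 for the peg-like against placode-like difference (2.59% to 7.62%). With no expression filter the counts were 2 (hair follicle-like, 3.71%), 5 (basal-like, 12.1%), 3 (differentiating-like, 6.60%), 1 (all keratinocytes, 1.87%), 5 (placode-like, 10.6%), 7 (peg-like, 6.23%), 5 (follicle against basal difference, 4.08%) and 4 (peg-like against placode-like difference, 3.03%). DESeq2 gave 3 in hair follicle-like (10.7%) and germ-like cells (2.40%) and 1 for the peg-like against placode-like difference (1.32%). At 5000 UMIs per cell the counts were 4 (all keratinocytes, 5.64%) and 1 (placode-like, 5.30%, germ-like, 1.47%, and follicle against basal difference, 1.43%). With uncorrected components they were 1 (basal-like, 7.99%, differentiating-like, 4.81%, germ-like, 1.47%, and follicle against basal difference, 1.34%) and 0 (peg-like, 0.39%). At Leiden resolution 0.5 they were 3 (hair follicle-like, 8.14%) and 1 (differentiating-like, 1.17%, and placode-like, 3.84%), and at resolution 2 there was 1 in placode-like cells (12.2%). With changed genes kept in clustering they were 0 (placode-like, 14.5%), 2 (germ-like, 4.04%) and 1 (follicle against basal difference, 4%). With members kept they were 1 (placode-like, 10.6%) and 2 (germ-like, 1.91%), with doublets kept 4 (placode-like, 11.8%), and with at least 3000 genes 1 (placode-like, 10.6%, and follicle against basal difference, 1.56%). In the Zfpm2-led cluster, where the count was 0, it was 3 with no expression filter (4.76%), 2 with changed genes kept in clustering (7.02%) and 1 at 5000 UMIs per cell (2.57%), with uncorrected components (1.52%) and at resolutions 0.5 (3.41%) and 2 (3.75%). The cause of these shifts was not tested.

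Basal-like Krt79 turned to 0.91 with uncorrected components and 0.29 with members kept, Nfatc1 in placode-like cells to 0.025 with changed genes kept, while Lgr6 in hair follicle-like cells ranged from −0.70 to 0.037 with 1 library left out, the latter without TKO replicate 1. The Krt79 follicle against basal difference turned to −2.24 (doublets kept), −4.18 (uncorrected components), −0.035 (resolution 0.5), −0.69 (changed genes kept), −3.27 (members kept) and −0.99 (Zfp750-led cluster left out). That of Pthlh turned to 0.29 (at least 3000 genes) and 0.42 (Zfpm2-led cells counted as basal-like). The germ-like share difference, −0.17 percentage points, ranged from −3.30 to 2.96 with 1 library left out and turned to 1.86 (doublets kept), 2.96 (resolution 0.5), 1.08 (resolution 2) and 1.003 (members kept). The share difference of Lrig1 turned to 2.49 without thinning, that of Lgr6 to 0.70 at resolution 0.5, and with 1 library left out those of Lhx2 and Lgr6 ranged from −17.3 to 1.53 and from −18.1 to 4.90, the highest without TKO replicate 1.

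Same-numbered libraries did not deviate together (r from −0.263 to −0.0112 over the fits), and the main fits used no block. With 2 libraries a group, this check cannot decide whether samples share a litter or a batch. With the replicate block the counts were 8 in hair follicle-like cells (13.6%), 4 in all keratinocytes (3.8%) and 1 in the Zfpm2-led cluster (4.63%). The crossed pairing, added after seeing the data, gave 6 (17.3%), 5 (18.5%) and 1 (3.62%), and 1 in differentiating-like cells (9.17%). No peg-like subgroup formed at resolution 0.5 or with members kept, and no Zfpm2-led cluster with at least 3000 genes.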
